A study of Mus musculus with 6 samples.

Results

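Toll-like receptors are the membrane sensors with which macrophages detect microbial lipopeptides, proteins and nucleic acids. The genes described here were the 9 mouse Toll-like receptor genes Tlr1, Tlr2, Tlr3, Tlr5, Tlr6, Tlr7, Tlr8, Tlr9 and Tlr13, together with Unc93b1, which encodes the membrane protein that carries the endosomal receptors out of the endoplasmic reticulum. They were taken by gene symbol from the deposited count table, in which they are 10 of 55421 genes. Tlr4, the endotoxin receptor, lies outside the set by definition. Messenger RNA was sequenced from primary mouse macrophages of wild-type genotype, differentiated out of marrow cells by the growth factor M-CSF. In 3 wells the cells were kept for 24 h in a mixture of equal volumes of fresh medium and medium conditioned by LL-2 cells, a mouse Lewis lung carcinoma line, so that 50% of the medium was conditioned. The other 3 wells stayed untreated in fresh RPMI-1640. The fresh medium of both groups held 10% serum and 20 ng/mL M-CSF. Medium conditioned by another cell type was not analysed here, and the treated wells received a smaller share of fresh medium, so effects of the tumour cells' products and of that share cannot be told apart. No label ties a well to its own animal, and the p-values therefore reflect well-to-well spread that could be technical.

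Tlr1, Tlr2, Tlr5 and Tlr6 act mainly at the cell surface. Tlr2 pairs with Tlr1 to recognise triacylated bacterial lipopeptides and with Tlr6 to recognise diacylated ones, and Tlr5 recognises bacterial flagellin. Tlr3, Tlr7, Tlr8, Tlr9 and Tlr13 act in endosomes on double-stranded RNA (Tlr3), single-stranded RNA (Tlr7 and Tlr8), unmethylated CpG DNA (Tlr9) and bacterial ribosomal RNA (Tlr13), although mouse Tlr8 responds poorly to the ligands that activate its human counterpart. Most of these receptors signal through the adaptor MyD88, and Tlr3 signals through TRIF, the product of Ticam1.

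The libraries held 28447825 to 30040682 counts in the conditioned-medium wells and 24179548 to 25916709 counts in the untreated wells. Levels are given as CPM, counts divided by the library total after TMM scaling between libraries, and levels of different genes are compared per kilobase of the exon length in the table. All 10 macrophage markers were detected in every well, and 6 rose and 3 fell, where 12.6% of all tested genes rose and 15.2% fell. Csf1r was at 5514 to 6026 CPM in conditioned medium and 3796 to 4638 CPM untreated, while Cd68 was at 795.5 to 920 CPM in conditioned medium and 1329 to 1374 CPM untreated. The 8 epithelial and tumour-cell markers summed to 0.723 to 1.44 CPM in conditioned medium and 0.836 to 1.24 CPM untreated, most of it Cdh1 (16 to 32 reads in conditioned medium and 19 to 28 untreated). Krt19 had 4, 9 and 0 reads and Krt7 6, 1 and 3 reads in conditioned medium, against at most 1 read of either in an untreated library, and Esrp1 had 0 reads throughout. The wells numbered 3 in both groups stood apart from the others on the second principal component, which held 17.9% of the variance, and results that rest on them are given with and without them.

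The promoters of 3 genes are shown because their genes moved the most (Tlr5 upward and Tlr9 downward) or changed call with the well number as a block (Tlr2). Tlr3, whose call changed under other settings, is not shown. Each promoter runs from 250 bases before to 50 bases after the annotated start and is the RefSeq sequence on GRCm38.p6, written 5′ to 3′ on the gene's strand. Capitals mark matches to the motifs listed after the sequences.
Tlr5, chr1:182954538-182954837, plus strand: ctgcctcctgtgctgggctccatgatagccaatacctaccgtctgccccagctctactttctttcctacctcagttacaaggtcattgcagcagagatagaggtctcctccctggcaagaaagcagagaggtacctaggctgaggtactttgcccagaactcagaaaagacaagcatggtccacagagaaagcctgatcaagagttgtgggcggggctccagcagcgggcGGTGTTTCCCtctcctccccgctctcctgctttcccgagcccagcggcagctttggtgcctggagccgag
Tlr9, chr9:106222348-106222647, plus strand: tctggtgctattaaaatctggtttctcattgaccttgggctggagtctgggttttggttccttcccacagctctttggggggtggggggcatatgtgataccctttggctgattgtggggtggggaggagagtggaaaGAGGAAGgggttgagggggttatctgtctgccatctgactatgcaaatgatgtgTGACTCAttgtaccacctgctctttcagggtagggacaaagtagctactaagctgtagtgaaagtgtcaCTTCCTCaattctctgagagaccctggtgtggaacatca
Tlr2, chr3:83841559-83841858, minus strand: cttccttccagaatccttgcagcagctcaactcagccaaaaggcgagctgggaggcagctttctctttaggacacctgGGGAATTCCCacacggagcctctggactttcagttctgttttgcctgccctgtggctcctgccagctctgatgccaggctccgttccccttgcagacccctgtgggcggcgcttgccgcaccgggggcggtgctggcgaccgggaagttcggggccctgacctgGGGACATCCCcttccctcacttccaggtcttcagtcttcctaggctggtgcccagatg
The search covered both strands for 7 motifs, in 32817 promoters of 300 bases. These were the interferon-stimulated response element (ISRE: GAAA, any 2 bases, GAAA, present in 3.43% of all promoters), the STAT element TTCNNNGAA (8.29%), the NF-kB element (GGGA, any 4 bases, CC, 20.7%), the AP-1 element TGANTCA (7.81%), the PU.1 element GAGGAAG (13.6%), the glucocorticoid receptor element (GNACA, any 3 bases, TGTNC, 0.475%) and the hypoxia element ACGTG (19.6%). The Tlr5 promoter held 1 NF-kB match beginning 20 bases before the start, on the opposite strand, and no match to the other motifs. The Tlr9 promoter held 2 PU.1 matches and 1 AP-1 match, and the Tlr2 promoter held 2 NF-kB matches. Among the other members with an entry, Tlr3 held 3 NF-kB matches, Tlr13 held 1 PU.1 match, and Tlr8 held 1 STAT match. Tlr6 and Tlr1 have 2 annotated starts each. For Tlr6, 1 start held 2 overlapping ISRE matches and the other held 2 STAT matches, and for Tlr1, 1 start held a STAT match and a hypoxia match read on both strands and the other held a PU.1 match. A match is a description of letters and does not show that a factor binds there.

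With conditioned medium, Tlr5 rose and Tlr1, Tlr3, Tlr9 and Tlr13 fell, while Tlr2, Tlr6, Tlr7, Tlr8 and Unc93b1 did not pass the test. Each of the 10 genes passed the filter on low counts in every well of both groups. Thus 5 of 10 changed at an adjusted p under 0.05 (edgeR's quasi-likelihood test with Benjamini-Hochberg adjustment over 13853 genes), where 27.9% of all tested genes did. In direction, 1 of 10 rose, against 12.6% of all tested genes, and 4 of 10 fell, against 15.2%. The groups did not overlap for 5 of 10 genes, against 42.8% of all tested genes. Beyond 1.5-fold, glmTreat called Tlr5 alone among the 10, where 3.49% of all tested genes were called. Over all genes 1749 rose and 2112 fell, and without scaling beyond the total count 2656 rose and 1710 fell. A fit with the well number as a block called 2 members higher and 4 lower, against 36.3% of all tested genes, and the gene it added was Tlr2.

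Tlr5, the flagellin receptor gene (ENSMUSG00000079164, chromosome 1, 182954788 to 182976044, GRCm38), had the largest change of the family. It was covered by 291, 302 and 206 reads in the conditioned-medium wells and by 31, 24 and 27 reads in the untreated wells. As levels these were 9.55, 9.92 and 7.09 CPM with conditioned medium and 1.30, 0.991 and 1.08 CPM untreated. Every conditioned-medium well lay far above every untreated well, and the lowest of the treated values was that of well 3. The mean was 8.85 ± 1.54 CPM in conditioned medium and 1.12 ± 0.157 CPM in untreated wells (SD, n = 3 each). This is a 7.86-fold rise (log2 fold change 2.97, SE 0.189, edgeR adjusted p = 6.96e-06). By log2 fold change Tlr5 ranked 12 among the 13853 tested genes. It remained scarce after the rise, and it was the lowest of the 10 genes per kilobase in both groups.

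Tlr2 (ENSMUSG00000027995, chromosome 3, 83836272 to 83841767), the shared partner of Tlr1 and Tlr6, was measured at 307, 289 and 366 CPM with conditioned medium and at 256, 255 and 348 CPM in untreated wells. In both groups well 3 was the highest, and untreated well 3 exceeded 2 of the conditioned-medium wells, so the groups overlapped. Within each number the conditioned-medium well was the higher one, by 0.26, 0.18 and 0.07 on the log2 scale. Without regard to the numbers the log2 fold change was 0.16 (95% interval -0.12 to 0.45, edgeR adjusted p = 0.387). With the number as a block it was 0.17 (SE 0.043, edgeR adjusted p = 0.00566). Without untreated well 3 it was 0.33 (edgeR adjusted p = 0.0282), and without both wells numbered 3 it was 0.22 (edgeR adjusted p = 0.00255). The call for Tlr2 therefore depends on how those wells enter the fit.

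Tlr1 and Tlr6 encode the partners of Tlr2. Tlr1 (ENSMUSG00000044827, chromosome 5, 64924679 to 64933563) stood at 105, 109 and 97.7 CPM with conditioned medium and at 130.4, 155 and 129 CPM untreated. All conditioned-medium wells were below all untreated wells, and the log2 fold change was -0.41 (SE 0.075, edgeR adjusted p = 0.00305), a decrease of 1.33-fold. Tlr6 (ENSMUSG00000051498, chromosome 5, 64952031 to 64960097), the adjacent paralog, was at 37.1, 40.1 and 37.3 CPM with conditioned medium and at 33.6, 34.8 and 38.9 CPM untreated. Its groups overlapped, and its log2 fold change was 0.09 (95% interval -0.05 to 0.24, edgeR adjusted p = 0.338). Tlr1 and Tlr6 share sequence: of the distinct 50-base words in their GENCODE transcripts, 13.6% of those of Tlr1 and 12.3% of those of Tlr6 also occur in the other gene. With all genes counted, 15.4% of the words of Tlr1 occur in another gene, over 158 genes with Tlr6 included. How reads that map to several places were counted is not given in the sources used here, so the split between both genes is uncertain. None of the other 8 members shared such a word with another gene.

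**Figure D1:**
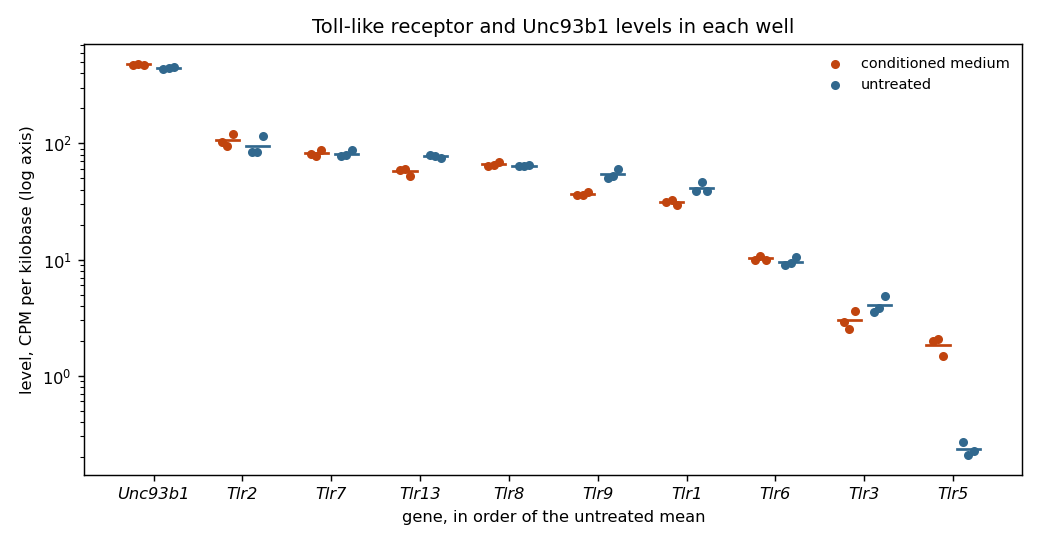
Level of each gene in each well, in CPM per kilobase of exon on a log axis, with conditioned-medium wells (orange, left) and untreated wells (blue, right) and a bar at the mean of 3 wells. Unc93b1 is the most abundant and Tlr5 the scarcest gene in both groups, and the Tlr5 groups are the most widely separated.

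Of the endosomal receptors, the CpG DNA receptor gene Tlr9 (ENSMUSG00000045322, chromosome 9, 106222598 to 106226883) fell the most. It reached 126, 125 and 134 CPM with conditioned medium and 174, 183 and 208 CPM in untreated wells. The groups did not overlap, and well 3 was the highest in each. Its log2 fold change was -0.56 (SE 0.066, edgeR adjusted p = 0.000275), a decrease of 1.47-fold. Tlr13 (ENSMUSG00000033777, chromosome X, 106143204 to 106160493), the bacterial ribosomal RNA receptor gene, was at 256, 261 and 224 CPM with conditioned medium and at 342, 332 and 324 CPM untreated. These groups were also separate, here with well 3 the lowest in each. The log2 fold change of Tlr13 was -0.43 (SE 0.061, edgeR adjusted p = 0.000732).

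Tlr3 (ENSMUSG00000031639, chromosome 8, 45395665 to 45411080), the receptor gene for double-stranded RNA, was scarcer. It measured 15.0, 13.1 and 18.7 CPM with conditioned medium and 18.4, 20.0 and 25.3 CPM in untreated wells. The highest conditioned-medium well lay just above the lowest untreated well, so the groups overlapped slightly. The log2 fold change was -0.45 (SE 0.148, edgeR adjusted p = 0.0494), at the edge of the threshold. With the well number as a block the edgeR adjusted p was 0.000216 and without scaling beyond the total count it was 0.0705. Without both wells numbered 3 it was 0.00506. Leaving out single wells, it was 0.00892 without conditioned-medium well 3 and 0.0399 without untreated well 1, and the call was lost when any one of the other 4 was left out. The edgeR adjusted p was 0.134 without conditioned-medium well 1, 0.139 without conditioned-medium well 2, 0.0883 without untreated well 2 and 0.152 without untreated well 3.

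The single-stranded RNA receptor genes Tlr7 and Tlr8 lie beside each other on chromosome X and did not pass the test. Tlr7 (ENSMUSG00000044583, 167304929 to 167330558) was at 329.6, 319 and 361 CPM with conditioned medium and at 316, 327 and 355 CPM untreated. Its log2 fold change was 0.02, with a 95% interval of -0.12 to 0.16 (edgeR adjusted p = 0.869). Tlr8 (ENSMUSG00000040522, 167242696 to 167264329) was at 228, 236 and 249 CPM with conditioned medium and at 230.1, 228 and 236 CPM untreated. Its log2 fold change was 0.04, with a 95% interval of -0.06 to 0.14 (edgeR adjusted p = 0.584). For both genes the wells of the groups interleaved, and the intervals exclude changes as large as the estimates for Tlr9 and Tlr13.

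Unc93b1 (ENSMUSG00000036908, chromosome 19, 3935186 to 3949340), the trafficking factor, was the most abundant member. Its level was 1445, 1475 and 1424 CPM with conditioned medium and 1322, 1347 and 1379 CPM untreated. Although each conditioned-medium well exceeded each untreated well, the difference was small, with a log2 fold change of 0.10 (95% interval 0.01 to 0.20, edgeR adjusted p = 0.106). The edgeR adjusted p was 0.00976 without scaling beyond the total count and 0.0207 without both wells numbered 3.

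**Figure D2:**
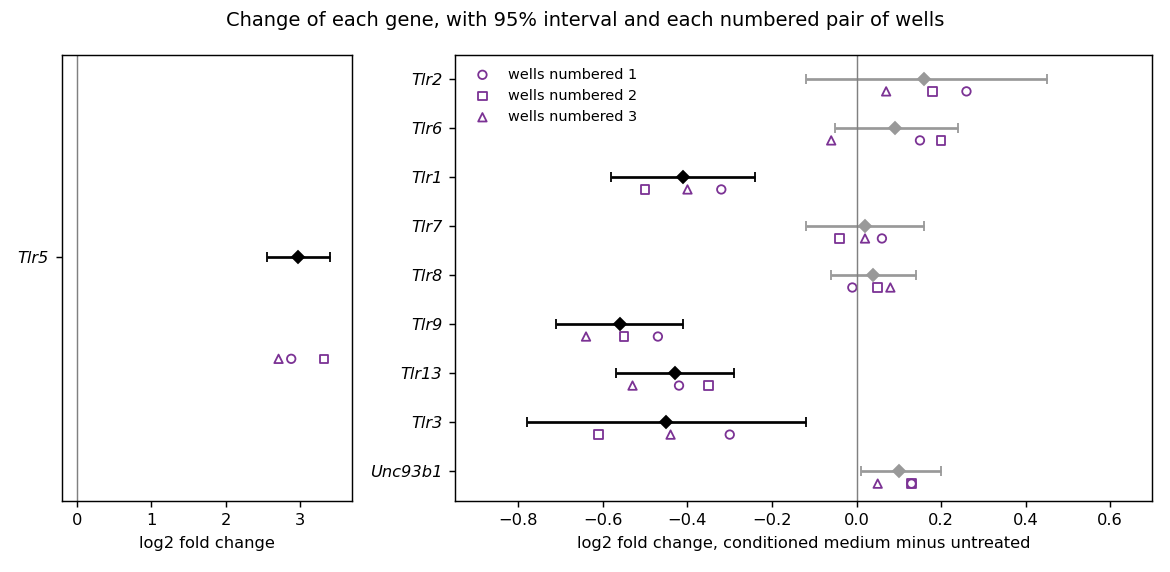
Log2 fold change of each gene (conditioned medium minus untreated, diamonds) with its 95% interval, black where the adjusted p was under 0.05 and grey otherwise, and the difference within each same-numbered pair of wells (open symbols). Tlr5 has a scale of its own at left. Tlr1, Tlr3, Tlr9 and Tlr13 lie below 0 in each pair, and Tlr2 and Unc93b1 lie above 0 in each pair.

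Per kilobase, the order of levels was nearly the same in both groups. Unc93b1 led with 478 ± 8.34 CPM per kilobase in conditioned medium and 445 ± 9.37 in untreated wells. In conditioned medium it was followed by Tlr2 (106 ± 13.4), Tlr7 (82.5 ± 5.33), Tlr8 (66.2 ± 2.94), Tlr13 (57.3 ± 4.63), Tlr9 (36.8 ± 1.35), Tlr1 (31.0 ± 1.75), Tlr6 (10.2 ± 0.442), Tlr3 (2.99 ± 0.547) and Tlr5 (1.85 ± 0.321). No pair of neighbours in that order overlapped in its wells. In untreated wells the order was Tlr2 (95.1 ± 17.7), Tlr7 (81.5 ± 5.003), Tlr13 (77.3 ± 2.10), Tlr8 (64.5 ± 1.16), Tlr9 (54.2 ± 5.06), Tlr1 (41.3 ± 4.36), Tlr6 (9.60 ± 0.751), Tlr3 (4.08 ± 0.702) and Tlr5 (0.234 ± 0.0327). There the ranges of Tlr2 and Tlr7 overlapped, although Tlr2 was above Tlr7 in 3 of 3 wells. The ranges of Tlr7 and Tlr13 also overlapped, with Tlr7 the higher in 2 of 3 wells, so their order is not set apart from the spread. Tlr8 and Tlr13 are the only genes that changed places between the groups.

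The makeup of the receptor set can be read without any scaling between libraries, as each receptor's share of the summed level per kilobase of the 9 receptors. Tlr2 held 26.8 ± 2.26% in conditioned medium and 22.1 ± 2.73% in untreated wells, and the wells of the groups overlapped. Tlr9 held 9.32 ± 0.0429% in conditioned medium and 12.7 ± 0.398% untreated, and Tlr13 held 14.6 ± 1.73% in conditioned medium and 18.1 ± 1.55% untreated. Tlr5 took 0.470 ± 0.0981% with conditioned medium and 0.0551 ± 0.00977% without it. The 5 endosomal receptors summed to 243, 243 and 252 CPM per kilobase in conditioned medium and to 275, 277 and 293 in untreated wells, which did not overlap. The 4 surface receptors summed to 145, 141 and 162 CPM per kilobase in conditioned medium and to 133, 141 and 165 in untreated wells, which did. Unlike the shares, these sums depend on the scaling between libraries. As a share of the 9 receptors, the surface receptors held 37.4, 36.8 and 39.2% in conditioned medium. Their share untreated was 32.7, 33.6 and 36.0%, so the shares of the groups did not overlap. A lower share of some receptors raises the shares of the others. Tlr7 held 20.8 ± 0.512% in conditioned medium and 19.1 ± 0.117% untreated, and Tlr8 16.7 ± 0.361% and 15.1 ± 0.690%. Their shares were separate between the groups, although their levels did not pass the test.

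Ratios between receptors within a well do not depend on scaling between libraries. The 6 ratios given were chosen with the values known, and with 3 wells against 3 none could reach an exact permutation p under 0.1, so they are a description. The ratio of Tlr9 to Tlr7, receptors that use the same trafficking factor, was 0.448, 0.460 and 0.434 with conditioned medium and 0.649, 0.656 and 0.688 in untreated wells. Tlr1 to Tlr6 stood at 3.14, 3.04 and 2.92 with conditioned medium and at 4.33, 4.95 and 3.696 untreated, and Tlr13 to Tlr7 at 0.736, 0.775 and 0.588 with conditioned medium and at 1.03, 0.963 and 0.864 untreated. In each of these 3 ratios the groups did not overlap, and the two-sided exact permutation p was 0.1, the smallest that 3 wells against 3 allow (adjusted over the 6 ratios, 0.2). Tlr1 to Tlr2 was 0.307, 0.341 and 0.240 with conditioned medium and 0.459, 0.547 and 0.334 untreated, with a slight overlap (exact permutation p = 0.2, adjusted 0.3). Tlr6 to Tlr2 and Tlr8 to Tlr7 interleaved between the groups (exact permutation p = 0.7 for each). The Tlr8 to Tlr7 ratio averaged 0.804 ± 0.0320 in conditioned medium and 0.793 ± 0.0374 in untreated wells (SD, n = 3 each).

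**Figure D3:**
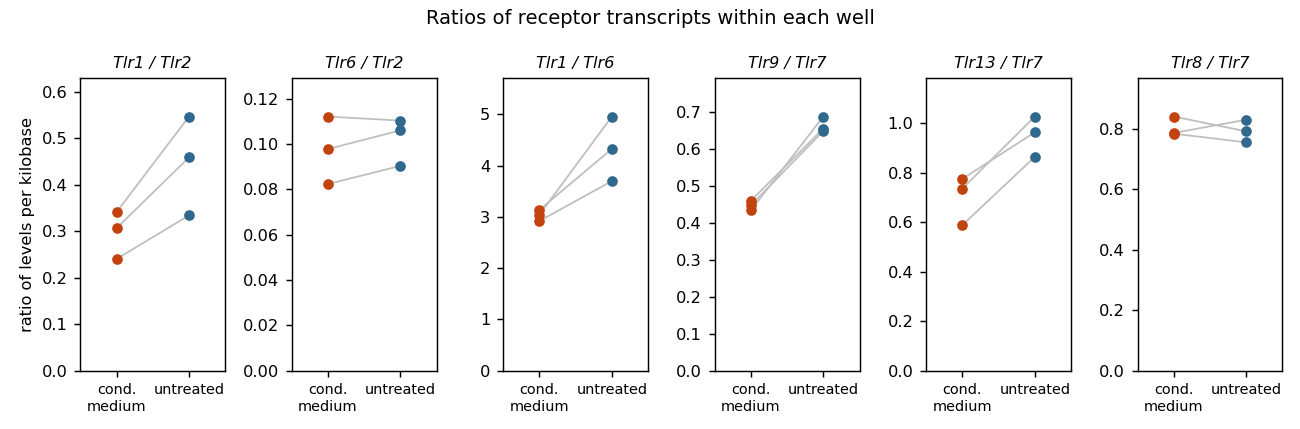
Ratio of levels per kilobase between 2 receptors in each well, for conditioned medium (orange, left) and untreated wells (blue, right), with lines joining wells of the same number and axes starting at 0. The ratios of Tlr1 to Tlr6, Tlr9 to Tlr7 and Tlr13 to Tlr7 are separate between the groups, and those of Tlr6 to Tlr2 and Tlr8 to Tlr7 are not.

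Some receptors of this family are also expressed by other blood cells, Tlr9 and Tlr7 by plasmacytoid dendritic cells and B cells and Tlr3 by conventional dendritic cells. In bulk RNA, fewer cells of a type and less RNA per cell cannot be told apart. The counts of called markers that follow stand beside 12.6% of all tested genes that rose and 15.2% that fell. Of 7 tested plasmacytoid dendritic cell markers, 2 fell and 1 rose, and the summed level of all 8 was 358 to 446 CPM with conditioned medium and 538 to 667 CPM untreated, most of it Bst2, which macrophages also express and which interferon induces. Siglech, a defining marker, had 93, 72 and 30 reads with conditioned medium and 121, 140 and 73 reads untreated. Siglech and Bst2 were both lower with conditioned medium within each well number. Within each group they parted at well 3, which had the lowest Siglech and the highest Bst2. Of 7 tested conventional dendritic cell markers, 4 fell, with a sum of 7.81 to 9.74 CPM in conditioned medium and 12.0 to 16.8 CPM untreated. Batf3, Dpp4, Flt3 and Clec9a were lower in every conditioned-medium well than in every untreated well. Batf3, the most abundant, was at 2.89 to 3.84 CPM in conditioned medium and 4.17 to 5.62 CPM untreated. The ranges of Zbtb46, Cd209a, Itgae and the defining marker Xcr1 overlapped, and Xcr1 had at most 13 reads in a library. Of 7 tested B cell markers 1 fell, with a sum of 134 to 153 CPM in conditioned medium and 145 to 190.5 CPM untreated, of which Ighm was the most. All 4 tested mast cell and basophil markers fell, with a sum of 3.99 to 7.91 CPM in conditioned medium and 12.2 to 14.2 CPM untreated, and Mcpt4 and Cma1 were at 0 reads. These markers were scarce: Ms4a2 had 15, 16 and 1 reads with conditioned medium and 29, 32 and 32 reads untreated. Of 8 neutrophil markers 2 fell (484 to 563 CPM in conditioned medium and 402 to 597 CPM untreated), and of 7 tested fibroblast and stromal markers 1 fell (32.0 to 94.5 CPM in conditioned medium and 17.3 to 68.3 CPM untreated). The part of any of these cells in the changes of the members was not tested.

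Toll-like receptors outside the set were Tlr4, Tlr11 and Tlr12. Tlr4 was at 104 ± 7.34 CPM with conditioned medium and 93.3 ± 4.96 CPM untreated (log2 fold change 0.15, edgeR adjusted p = 0.101, and 0.0207 with the well number as a block). It also passed without scaling (0.0233), without the filter (0.0481) and without conditioned-medium well 1 (0.0443). Tlr11 and Tlr12, which in mice recognise protozoan profilin, were at the edge of detection. Tlr12 had 20, 18 and 10 reads with conditioned medium and 32, 43 and 29 reads untreated (log2 fold change -1.41, edgeR adjusted p = 0.00957). Tlr11 had 6, 11 and 7 reads with conditioned medium and 10, 19 and 21 reads untreated (log2 fold change -1.34, edgeR adjusted p = 0.0375). It exceeded the filter on low counts in 0 conditioned-medium wells and 3 untreated wells, and Tlr12 did so in 2 and 3. Tlr11 was thus tested only through the group in which it was higher, which favours a call of lower. The Tlr12 call was lost without untreated well 2 (0.0507), and the Tlr11 call with DESeq2 (0.0860) and when any one of 4 wells was left out (0.0927 to 0.136) or both wells numbered 3 (0.165).

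Of the 147 other genes in 8 lists of the pathway, 143 were tested, and 27 rose and 53 fell. This is 55.9% of those tested, beside 27.9% of all tested genes, for lists that were chosen with earlier results known. Without scaling beyond the total count, 34 rose and 43 fell. Their median log2 fold change was -0.091, and that of all tested genes was 0.013. Among those called, Ager, Tlr11 and Dnase1l3 exceeded the filter on low counts mainly in the group in which they were higher. This favours those calls. The counts of single lists that follow stand beside 12.6% of all tested genes that rose and 15.2% that fell, and over all genes that order turned round without scaling.

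Of 10 co-receptors and ligand carriers, 2 rose and 4 fell (4 and 4 with the well number as a block). Ager, 1 of the 2 that rose, exceeded the filter on low counts in 3 conditioned-medium wells and 1 untreated well. Cd180, which encodes a receptor of the Toll-like family without a signalling domain, fell to 144 ± 5.86 CPM in conditioned medium, against 413 ± 4.52 CPM untreated. The lipopolysaccharide-binding protein gene Lbp rose to 8.86 ± 0.558 CPM with conditioned medium, against 3.44 ± 0.351 CPM untreated. Cd36, a scavenger receptor that assists the pair of Tlr2 and Tlr6, had a log2 fold change of -0.66 (edgeR adjusted p = 0.0298). The Cd36 call was lost with DESeq2 (0.0622) and without conditioned-medium well 1 (0.0889), untreated well 1 (0.0911) or untreated well 2 (0.114). With the well number as a block it was kept (edgeR adjusted p = 3.77e-08). Cd14, which hands ligands to Tlr4 and Tlr2, was at 591 ± 56.2 CPM with conditioned medium and 528 ± 67.4 CPM untreated (edgeR adjusted p = 0.243, 0.00399 with the block, 0.0335 without untreated well 3 and 0.00941 without both wells numbered 3).

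Of 23 trafficking and chaperone genes, Unc93b1 included, 4 rose and 8 fell, with a median log2 fold change of -0.10. Cnpy3, a chaperone needed for the folding of several receptors, rose to 168 ± 8.02 CPM with conditioned medium, against 130.5 ± 4.59 CPM untreated, and its relative Cnpy4 rose by a log2 fold change of 0.46. Hsp90b1, the chaperone gp96 of the same complex, was at 345 ± 5.21 CPM in conditioned medium and 367 ± 7.19 CPM untreated (edgeR adjusted p = 0.131). Slc15a4, an endolysosomal transporter needed for signalling by Tlr7 and Tlr9, fell by 0.40 on the log2 scale, and Rab7b, a small GTPase that directs Tlr4 and Tlr9 to lysosomes, fell by 0.64. Of 15 endosomal proteases and nucleases, 1 rose and 8 fell (median -0.22). Among them Ctss, the cathepsin S gene, fell to 4209 ± 186 CPM in conditioned medium, against 6797 ± 44.8 CPM untreated. Pld3, an exonuclease that degrades the DNA ligands of Tlr9, fell to 649.8 ± 80.6 CPM in conditioned medium, against 1288 ± 104 CPM untreated, and Ctsk, the cathepsin K gene, fell by 0.95 on the log2 scale. Lgmn, an asparagine endopeptidase that can cleave Tlr9, had a log2 fold change of 0.10 (edgeR adjusted p = 0.456). Dnase1l3, counted among the 8 proteases and nucleases that fell, exceeded the filter on low counts in 1 conditioned-medium well and 3 untreated wells.

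Of 27 tested adaptors and kinases, 5 rose and 4 fell, a share near the 27.9% of all tested genes, with a median log2 fold change of 0.00. Myd88 was at 96.6 ± 4.16 CPM in conditioned medium and 96.8 ± 9.90 CPM untreated (edgeR adjusted p = 0.980). Irak2, a kinase that sustains signalling, fell to 43.6 ± 1.71 CPM in conditioned medium, against 81.1 ± 2.42 CPM untreated. Pik3ap1, an adaptor that links receptors to phosphoinositide 3-kinase, had a log2 fold change of -0.64 (edgeR adjusted p = 1.81e-05). Ticam1 fell by 0.24 on the log2 scale (edgeR adjusted p = 0.0323) and Irak4, the kinase that MyD88 recruits first, rose by 0.22 (edgeR adjusted p = 0.0123). Ticam1 was no longer called without scaling (0.0670) or without conditioned-medium well 1 (0.116) or 3 (0.0616) or untreated well 2 (0.0952) or 3 (0.0924) or both wells numbered 3 (0.0981), and Irak4 without conditioned-medium well 1 (0.0583) or untreated well 1 (0.0546). With the well number as a block, Ticam1 (edgeR adjusted p = 0.00363) and Irak4 (0.00324) kept their calls. Traf6, a ubiquitin ligase, was at 34.4 ± 0.617 CPM in conditioned medium and 31.3 ± 1.94 CPM untreated (edgeR adjusted p = 0.115, and 0.0222 without scaling and 0.0420 without untreated well 3).

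Of 15 transcription factors, 1 rose and 5 fell (2 and 6 with the block). Irf7, which Tlr7 and Tlr9 activate and which interferon induces, fell to 113 ± 32.4 CPM in conditioned medium, against 361 ± 79.2 CPM untreated. Irf5, which acts downstream of MyD88, fell by 0.47 on the log2 scale, and Atf3, a factor that restrains receptor-induced genes, fell by 1.04. Cebpd rose by 0.67 (edgeR adjusted p = 0.0121), a call lost without untreated well 1 (0.0508) or 2 (0.0574) and kept with the block (9.35e-09). Of 30 negative regulators, 6 rose and 12 fell. Socs3, a feedback inhibitor of cytokine signalling, rose to 53.6 ± 5.82 CPM in conditioned medium, against 16.1 ± 3.34 CPM untreated, while Socs1 fell by 1.07 and Tnip3 by 0.87 on the log2 scale.

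Of 21 tested products that receptor ligands induce, 8 rose and 10 fell, with a median log2 fold change of -0.76. Tnf fell to 9.12 ± 1.85 CPM in conditioned medium, against 29.2 ± 3.35 CPM untreated, and the chemokine gene Ccl5 fell by 1.80 on the log2 scale. Il1b rose by a log2 fold change of 1.94, and Saa3, an acute-phase gene, rose to 689, 645 and 1127 CPM in conditioned medium, against 132, 132 and 411 CPM untreated. Its log2 fold change was 1.87 (edgeR adjusted p = 0.00949), and it was 2.63 without untreated well 3 and 2.33 without both wells numbered 3. Il6, Il23a and Ifnb1 were too scarce to be tested.

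**Figure D4:**
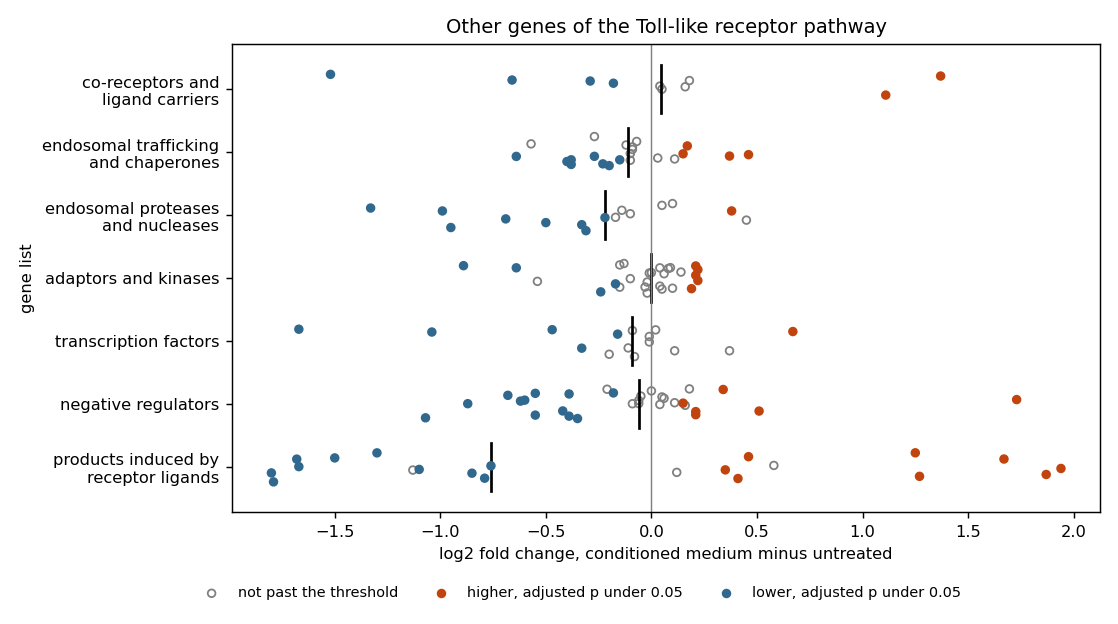
Log2 fold change (conditioned medium minus untreated) of each tested gene in 7 lists of the pathway, without the members, with filled points past an adjusted p of 0.05 (orange higher, blue lower), open points not past it, and a black bar at the median. Adaptors and kinases cluster around 0, and induced products spread the most in both directions.

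The genes whose pattern over the 6 libraries was most like that of the 2 members with the largest called changes were named by Pearson's r of log2(CPM + 0.1), among 9554 genes with a mean of at least 5 CPM. For Tlr5 these were Zdhhc14, Cmklr1 and Tsc22d3 (r of 0.999 each), and for Tlr9 they were Tnip1 (0.999), Npc2 (0.997) and St3gal5 (0.997). The 6 points share the difference between the groups, and 572 genes for Tlr5 and 538 for Tlr9 reached an r of 0.95.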

How the data were processed

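Per the labels' protocols, polyadenylated RNA was sequenced from 6 wells. Per the submitters' processing notes, the tools were HISAT2 and featureCounts and the build GRCm38. Their versions, the strand setting and the treatment of multi-mapping reads: not given in the sources used here. The authors deposited whole-number counts per gene. Symbols came from GENCODE M21 by identifier (55240 of 55421 genes, and 0 rows named no gene). All 10 members had the same coordinates there. Tlr3 alone overlaps another gene, which had 0 counts. No library repeated another within sampling noise.

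Genes were kept by filterByExpr (13853 tested), scaled by TMM and fitted on the group alone in edgeR 4.0.16 (R 4.3.3, with limma 3.58.1), whose quasi-likelihood test gave the p-values, with an adjusted p threshold of 0.05. A positive log2 fold change means higher in conditioned medium. SE and 95% intervals were derived from the F statistic. The script was tested on simulated data. A gene with 0 counts may have up to 3, or 0.124 CPM in the smallest library, which covers counting error only.

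Both groups carry the replicate numbers 1 to 3, whose meaning the labels leave out. Deviations from the group means correlated at 0.328, 0.161 and 0.309 for wells of the same number over 13853 genes. Each was above 0.1, the level set for treating the numbers as possible pairs. Because the labels state no pairing, the main calls come from the fit on the group alone, which ignores the numbers. The fit with the number as a block is the alternative that takes up the pairing. Among the members it changed only the call of Tlr2 (edgeR adjusted p = 0.387 on the group alone and 0.00566 with the block).

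The members and lists were chosen with earlier results of these data known. The genes named were all members, Tlr4, Tlr11 and Tlr12, the 3 largest called changes per list with a mean of at least 1 CPM, and 12 genes always included.

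Other settings tried were scaling by RLE or by the total alone, DESeq2 1.42.0, limma-voom, no filter, a mean of at least 1 CPM, the replicate block, leaving out each library, and leaving out both wells numbered 3. RefSeq promoters (GRCm38.p6) had entries for 8 of the members.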

Additional observations from a re-analysis of the deposited data

How the results depend on the processing

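Tlr1, Tlr5, Tlr9 and Tlr13 kept their direction and their call under each alternative run. Without scaling beyond the total count, Tlr3 was no longer called (log2 fold change -0.39), Unc93b1 was called (0.16), 2 members were higher, and 2656 of all genes were higher. With the replicate block Tlr2 was called (0.17), which made 2 members higher, and the block changed no other call of a member. Without both wells numbered 3, Tlr2 (0.22) and Unc93b1 (0.13) were called, which made 3 members higher. Leaving out 1 library gave a log2 fold change of -0.60 to -0.30 for Tlr3, 0.05 to 0.33 for Tlr2 and -0.04 to 0.07 for Tlr7, 1 to 2 members higher, and 1146 to 1653 genes higher over all. The lowest of these were 1146 without untreated replicate 2 and 1160 without conditioned-medium replicate 1. The ratio of Tlr6 to Tlr2 then changed by -0.18 to 0.04 and that of Tlr8 to Tlr7 by -0.01 to 0.05 on the log2 scale. Myd88 lay on either side of 0, with 0.06 without scaling, 0.00 with limma-voom, 0.01 without the filter, 0.00 with the block, 0.05 without both wells numbered 3 and -0.06 to 0.08 without 1 library. Causes were not tested. At this depth Tlr5 rests on 24 to 31 reads in each untreated library, and Tlr11 and Tlr12 on at most 43 in any library.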
